A study of Mus musculus with 4 samples.

Results

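The microRNAs (miRNAs) described here were the arms of miR-7a, miR-7b and miR-671, the last of which is known to act on Cdr1as, a circular RNA that binds miR-7. They were chosen by name, as every listed miRNA that is an arm of one of these families, and came to 7 of the 1038 mature miRNAs measured. The study compared small RNA in the medial prefrontal cortex of male C57BL/6 mice after chronic unpredictable mild stress (CUMS) with that of unstressed control mice. In CUMS, juvenile mice were kept alone and met other mild stressors of housing, confinement, sound and light at irregular times for 3 weeks. Of the stressed mice, only those that showed depression-like behavior in each of the behavioral tests were taken, so the CUMS group is a selected part of the stressed animals. Tissue of both sides of the cortex was taken, RNA was isolated mouse by mouse, and 2 libraries were sequenced in each group. The libraries held 10533646 and 10783592 reads on known miRNAs in the controls and 10427625 and 9589323 in the CUMS group. The letters a and b name the libraries within each group and stand for no replicate number.

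A mature miRNA guides Argonaute proteins to RNAs that pair with its seed, the bases near its 5′ end, and lowers the output of those RNAs. miR-7 is an old and strongly conserved miRNA that is enriched in neurons and neuroendocrine cells and is known to repress α-synuclein among other targets. In brain, Cdr1as carries many matches to the miR-7 seed, miR-671 can direct the cutting of Cdr1as, and the long noncoding RNA Cyrano drives the destruction of miR-7. Each hairpin gives a 5p and a 3p arm, of which one is usually loaded into Argonaute and the other is mostly lost.

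The mature sequences are shown because the families are defined by them, with the seed, bases 2 to 8, in capitals. The prefix mmu, for mouse, is left out in the rest of the text. All 7 arms had an entry in the RefSeq table for GRCm38, as did 884 of the 1038 miRNAs.
mmu-miR-7a-5p: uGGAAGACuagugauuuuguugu
mmu-miR-7b-5p: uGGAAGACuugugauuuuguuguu
mmu-miR-7a-1-3p: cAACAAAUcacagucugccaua
mmu-miR-7a-2-3p: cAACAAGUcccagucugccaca
mmu-miR-7b-3p: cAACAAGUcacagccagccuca
mmu-miR-671-5p: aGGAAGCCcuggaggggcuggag
mmu-miR-671-3p: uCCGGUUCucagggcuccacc
The 5p arms of miR-7a and miR-7b share their seed, and no other miRNA with an entry had it. Over their first 23 bases they differ by A10U, counted from 1 at the 5′ end of miR-7a-5p, and their longest shared run is 13 bases. That run is shorter than the overlap with the mature sequence that the authors' counting required, so a counted read had to cover the base that differs. The seed of miR-671-5p differs from that of miR-7a-5p by A7C alone. Among the 3p arms, miR-7a-2-3p and miR-7b-3p share a seed, which differs from that of miR-7a-1-3p by A7G. The seeds of miR-7a-1-3p, miR-671-5p and miR-671-3p were found in no other miRNA with an entry.

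miR-7a-5p is made from a pair of hairpins, and its reads cannot be divided between them. In GRCm38, the Mir7-1 hairpin lies at chr13:58392779-58392886 on the minus strand, in an intron of Hnrnpk, which encodes an RNA-binding protein. The Mir7-2 hairpin lies at chr7:78888277-78888373 and the Mir7b hairpin at chr17:56242988-56243098, both on the plus strand. Neither overlapped another annotated gene in a search that left out genes with names starting with Mir or Gm. The Mir671 hairpin lies at chr5:24592114-24592211 on the plus strand, within coding exon 4 of Chpf2, an enzyme gene of chondroitin synthesis, and opposite to Smarcd3.

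The link between both families is visible in the sequence of the exon antisense to Cdr1, at chrX:61183248-61186174 on the plus strand. This is exon 6 of 7 of a transcript of the long noncoding gene C230004F18Rik, which RefSeq names Cdr1os with Cdr1as among its synonyms. In its 2927 bases, GTCTTCC, the complement of the miR-7 seed, occurred 123 times on the exon's strand and 0 times on the other. An A followed 34 of these matches. Of the 123, 79 lay opposite to Cdr1, and the median spacing from one match to the next was 18 bases, with a range from 17 to 109. By comparison, 23.9% of 25516 other transcripts of at least this length held GTCTTCC in their first 2927 bases, at most 4 times, and 32.4% held it on the opposite strand, at most 12 times. The first 30 bases with a pair of matches, at chrX:61183268-61183297, show the spacing, with the matches in capitals.
Exon antisense to Cdr1, miR-7: ccaagGTCTTCCaacatctccagGTCTTCC
GGCTTCC, the complement of the miR-671-5p seed, occurred once on the exon's strand and 0 times on the other. It was found on the transcript strand in 29.3% of the same 25516 transcripts, and on the opposite strand in 34.1%. Around this match, at chrX:61186029-61186051, 19 of the 23 bases of miR-671-5p could pair with the exon without a gap, and the bases that pair are in capitals.
Exon antisense to Cdr1, miR-671-5p: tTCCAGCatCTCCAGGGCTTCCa
The unpaired positions of miR-671-5p were 1, 15, 16 and 23, counted from its 5′ end. In Cyrano, annotated as 1700020I14Rik, the longest transcript of 8300 bases held GTCTTCC 2 times, and 48.7% of 1408 transcripts of at least that length held it in as many bases. At chr2:119602137-119602161 in its exon 3, 21 bases of miR-7a-5p could pair, 8 at the 5′ end and 13 at the 3′ end, again in capitals.
Cyrano, miR-7a-5p: ACAACAAAATCACcaatGTCTTCCA
These matches describe the sequences only. Neither Cdr1as nor Cyrano is a small RNA, and neither was measured here.

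**Figure D1:**
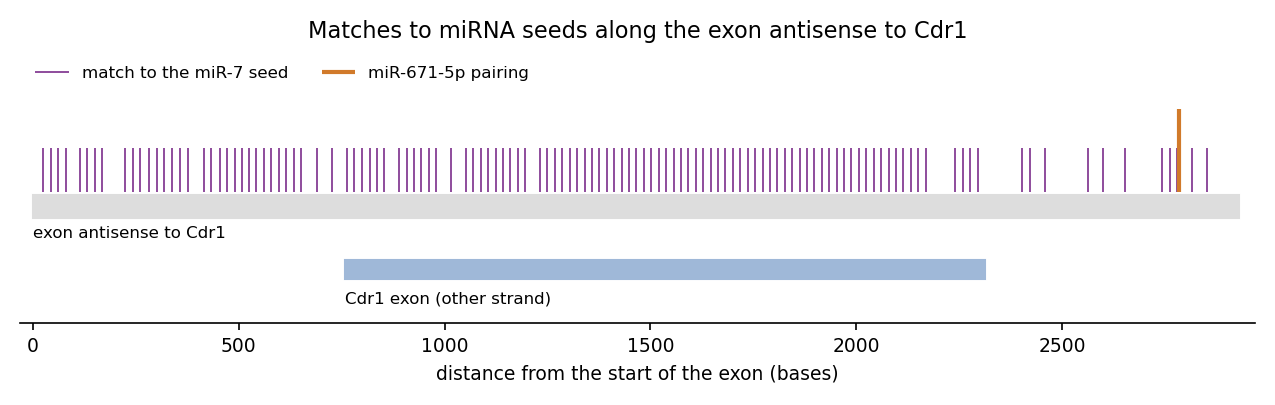
Matches to the miR-7 seed along the exon antisense to Cdr1. The horizontal axis is the distance from the start of the exon in bases, each thin line is 1 of 123 matches, the thick line marks the start of the miR-671-5p pairing at base 2782, and the lower bar is the Cdr1 exon on the other strand, which faces 79 of the matches.

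Before the values of the arms, control library b has to be described, since it stood apart. The miR-183 and miR-200 clusters, which mark epithelium and sensory or olfactory tissue, took 9.32% of its reads against 0.0393% in control library a, 0.0503% in CUMS library a and 0.0722% in CUMS library b. All 8 listed miRNAs of these clusters were past a fold of 1.5 lower in the CUMS group. Their summed normalized count was 1004812 in control library b, where control library a had 4047 and the CUMS libraries had 4936 and 7329. miR-182-5p was the most abundant of them. miR-96-5p had 0 reads in control library a, and miR-200c-3p had 71 reads in control library b and 0 in each of the others. The part of this difference in the values below was not tested, and the log2 fold of each arm and the group difference of each share are also given without control library b.

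Normalized read counts below are reads divided by the size factor of the library, so that libraries of different depth can be compared. The most abundant of the 7 arms was miR-671-3p, which ranked 164 of 1038 by its mean over the 4 libraries. It was followed by miR-7a-5p at 330, miR-7a-1-3p at 367, miR-7a-2-3p at 376, miR-7b-5p at 401, miR-671-5p at 495 and miR-7b-3p at 543. The order of the middle ranks is not firm, since the ranges of miR-7a-5p, miR-7a-1-3p, miR-7a-2-3p and miR-7b-5p over the libraries overlapped. Together the 7 arms took 0.0157% and 0.0139% of all miRNA reads in control and 0.0117% and 0.0123% in CUMS. Every arm had at least 5 reads in a library, and all 7 entered the tests.

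**Figure D2:**
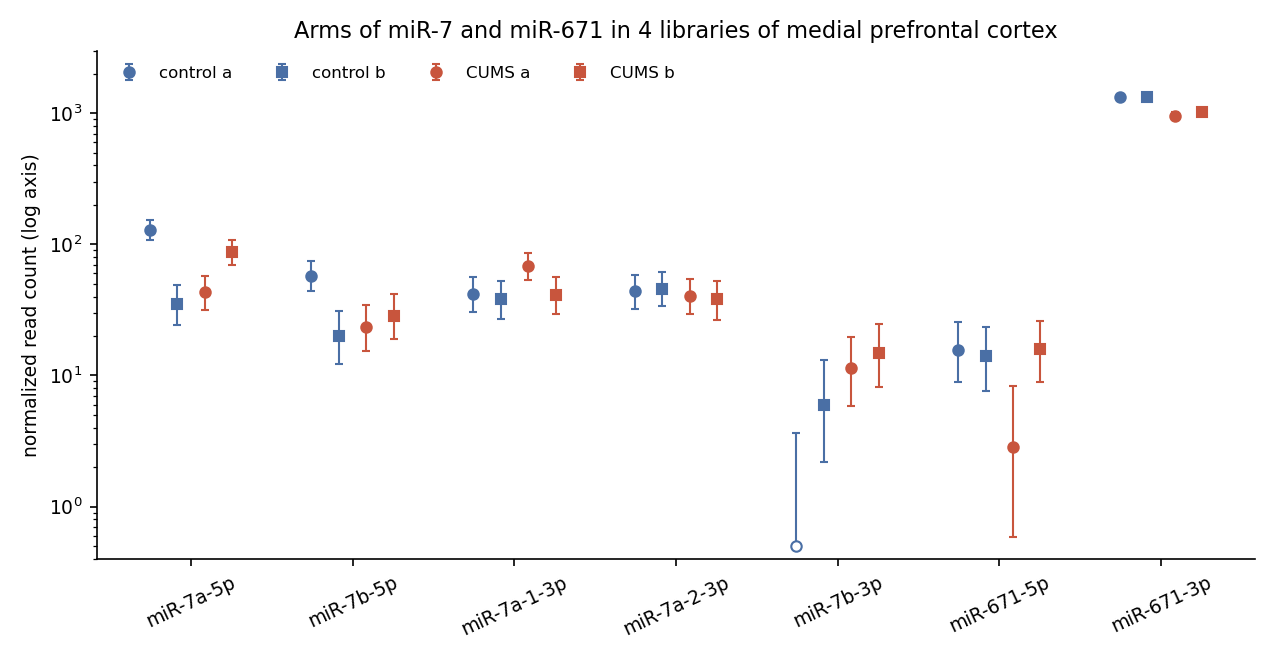
Normalized read counts of the 7 arms, on a log axis, in control (blue) and CUMS (red) libraries a (circles) and b (squares). Bars are exact 95% Poisson intervals of the reads and cover counting error only, and the open circle at the bottom stands for the 0 reads of miR-7b-3p in control library a. miR-671-3p has both CUMS libraries under both control libraries, and miR-7a-5p and miR-7b-5p are spread widely within the control group.

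miR-7a-5p, known as the guide arm of the family, was read 132 times in control library a, 35 times in control library b, 46 times in CUMS library a and 82 times in CUMS library b. The normalized counts were 129 and 35.0 in the controls and 43.3 and 86.9 in the CUMS group. Control library a was the highest and control library b the lowest of the 4, with both CUMS libraries between them, so the groups overlapped. The counting intervals of both control libraries, 108 to 153 and 24.4 to 48.7, lay apart. These intervals take reads as independent, which PCR copies are not. The means were 82.1 ± 66.6 (SD, n = 2) in control and 65.1 ± 30.8 (SD, n = 2) in CUMS, a log2 fold of -0.33. The exact two-sided permutation test over the 4 libraries gave p = 1. In tissue, fewer cells that make a miRNA and less of it per cell cannot be told apart.

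The direction of miR-7a-5p rested on single libraries. The log2 fold was 0.90 without control library a and 0.08 without CUMS library a, but -0.99 without control library b and -0.92 without CUMS library b. The distance between the control libraries was 1.85 on the log2 scale. Among 102 other miRNAs with a mean between 0.5 and 2 times that of miR-7a-5p, the median distance was 0.30, and 1 of them (0.980%) had a distance as large.

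miR-7b-5p, which has the same seed, had 59 and 20 reads in the controls and 25 and 27 in the CUMS group. Its normalized counts were 57.7 and 20.0 in the controls and 23.5 and 28.6 in CUMS. The order was that of miR-7a-5p, with control library a the highest, control library b the lowest and the CUMS libraries between them. The CUMS mean was 26.1 and the control mean 38.9, a ratio of 0.671 and a log2 fold of -0.58. The control mean was 1.49 times the CUMS mean, just inside the fold of 1.5. Here too the direction changed without control library a, to a log2 fold of 0.38, and it was -1.15 without control library b. The distance between its control libraries was 1.48 on the log2 scale, against a median of 0.38 among 125 miRNAs of like level, of which 6 (4.80%) reached it. Taken as a sum, the reads with the miR-7 seed came to a normalized count of 187 and 55.0 in the controls and 66.9 and 115 in CUMS, and the groups overlapped.

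The 3p arms of miR-7a come from separate hairpins and can be told apart. miR-7a-1-3p, from the hairpin in Hnrnpk, had 43 and 38 reads in the controls and 72 and 39 in the CUMS group, or normalized counts of 42.1 and 38.0 against 67.8 and 41.3. CUMS library a was high and the other 3 libraries were close together, and the groups overlapped. Its log2 fold was 0.45, with 0.38 without control library b and 0.046 without CUMS library a. miR-7a-2-3p, from the Mir7-2 hairpin, had 45 and 46 reads in the controls and 43 and 36 in CUMS. Its normalized counts were 44.0 and 46.0 against 40.5 and 38.1. Both CUMS libraries were below both controls, by little, and all 4 counting intervals overlapped. Its log2 fold was -0.19, with a standard error of 0.57 in DESeq2, and -0.16 without control library b. Neither 3p arm showed the wide distance between the control libraries that miR-7a-5p had, with 0.14 for miR-7a-1-3p and 0.06 for miR-7a-2-3p on the log2 scale.

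miR-7b-3p had 0 and 6 reads in the controls and 12 and 14 in the CUMS group. A count of 0 allows up to 3 reads as a one-sided limit, a normalized count of 2.93, and the two-sided Poisson interval that the plot shows reaches 3.61. The other normalized counts were 6.00 in control library b and 11.3 and 14.8 in CUMS. Both CUMS libraries were above both controls, so the groups did not overlap, although the interval of control library b, 2.20 to 13.1, overlapped those of both CUMS libraries. The CUMS mean of 13.1 was 4.36 times the control mean of 3.00, a log2 fold of 2.12. The standard error in DESeq2 was 1.47, and the adjusted p was 0.849 in edgeR and 0.998 in DESeq2. Without control library a, which had the 0 reads, the log2 fold was 1.12. Without control library b, the CUMS mean was at least 4.45 times the control value, taking the 3 reads that a count of 0 allows in control library a, or 3.62 times at the end of the two-sided interval.

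miR-671-3p was measured with the most reads, 1356 and 1337 in the controls and 1019 and 962 in CUMS. The normalized counts were 1326 and 1336 in the controls and 959 and 1019 in the CUMS group. Both CUMS libraries were below both controls, and the counting intervals of the CUMS libraries, 901 to 1020 and 956 to 1086, lay under those of the controls, 1257 to 1399 and 1266 to 1410. The means were 1331 ± 7.14 (SD, n = 2) in control and 989 ± 42.3 (SD, n = 2) in CUMS, a ratio of 0.743 and a log2 fold of -0.43. This was inside the fold of 1.5. The exact two-sided permutation p was 0.333, the smallest that 2 against 2 libraries can give. In edgeR the log2 fold was -0.46 with an adjusted p of 0.849, and in DESeq2 it was -0.43 with a standard error of 0.20 and an adjusted p of 0.984. Without control library b the log2 fold was -0.42.

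miR-671-5p, the arm that can pair with Cdr1as, had 16 and 14 reads in the controls and 3 and 15 in CUMS. The normalized counts were 15.7 and 14.0 against 2.82 and 15.9. CUMS library a was low, CUMS library b was the highest of the 4, and the groups overlapped. The 3 reads of CUMS library a have a counting interval of 0.583 to 8.25 in normalized counts, which lay under the 8.95 to 25.4 of control library a and overlapped the 7.65 to 23.5 of control library b. The ratio of the means was 0.631, a log2 fold of -0.66, with a standard error of 1.12 in DESeq2. Without CUMS library a the direction was the opposite, with a log2 fold of 0.10. The log2 fold was -2.39 without CUMS library b and -0.74 without control library b.

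A comparison over all miRNAs placed these values. A miRNA was counted as past the threshold when the group means differed by a fold above 1.5 and either mean reached 5, with no test. Of the 7 arms, 1 was past it higher in CUMS, miR-7b-3p, and 1 lower, miR-671-5p. Among the 628 miRNAs with such a mean, 75 (11.9%) were past it higher and 86 (13.7%) lower. With reads scaled to the total of each library, the order was the other way, with 88 higher and 72 lower. With the reads of the miR-183 and miR-200 clusters left out of those totals, it was again as in the main comparison, with 77 higher and 86 lower. Without control library b, 4 of the 7 arms and 176 of 627 miRNAs (28.1%) were past it. Without control library a these were 2 arms and 177 of 628 miRNAs (28.2%), without CUMS library a 1 arm and 215 of 644 miRNAs (33.4%), and without CUMS library b 5 arms and 176 of 630 miRNAs (27.9%). The median log2 fold was -0.33 over the 7 arms and 0.02 over the 628 miRNAs. The median of the arms is the value of miR-7a-5p, whose direction rested on single libraries. In 1 arm, miR-7b-3p, both CUMS libraries lay above both controls, and in 2 arms, miR-671-3p and miR-7a-2-3p, both lay below. Of 719 miRNAs that reached 5 reads in any library, 120 (16.7%) were above and 123 (17.1%) below in the same sense. In the edgeR quasi-likelihood test, 0 of 719 miRNAs (0.0%) had an adjusted p under 0.05, and 30 had an unadjusted p under it, among them 1 of the 7 arms, miR-671-3p. DESeq2 gave 0 and 24. None of the 7 arms passed either test. Without control library a, which leaves control library b to stand alone and takes it to vary like the CUMS libraries, edgeR called 12 miRNAs at an adjusted p under 0.05. Of these, 11 belonged to the miR-183 and miR-200 clusters and 0 were among the 7 arms. Without any other single library, edgeR called 0.

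**Figure D3:**
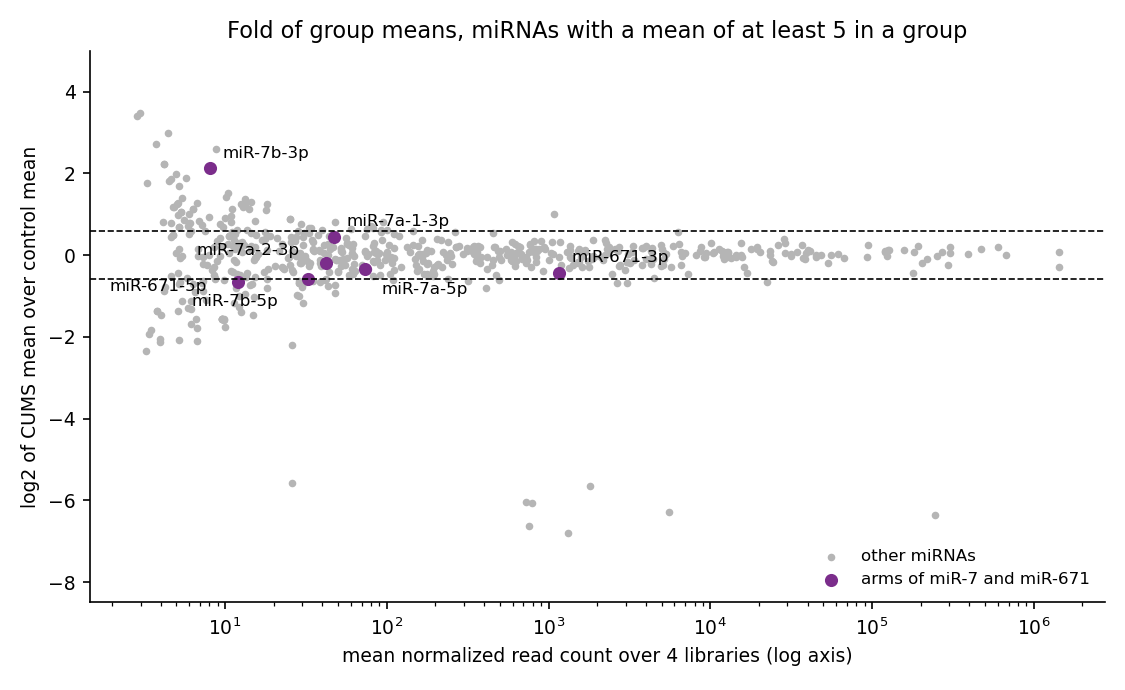
Log2 of the CUMS mean over the control mean against the mean normalized read count over the 4 libraries (log axis), for the 623 miRNAs whose mean reached 5 in either group and was above 0 in both. Dashed lines mark a fold of 1.5, beyond which lie miR-7b-3p at 2.12 and miR-671-5p at -0.66, both among miRNAs of low count where the spread is wide.

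Shares of reads within a library do not depend on the size factors. miR-7b-5p made up 30.9% and 36.4% of the reads with the miR-7 seed in the controls and 35.2% and 24.8% in CUMS. The groups overlapped, and the 95% Wilson intervals of all 4 libraries overlapped, the widest being 24.9% to 49.6% in control library b. The exact permutation p was 0.667. The CUMS mean share minus that of control was -3.64 points, and -0.90 points without control library b. Without CUMS library b its sign changed, to 1.58 points, and without CUMS library a it was -8.86 points. Between the control libraries, where this share was 30.9% and 36.4%, the level of miR-7a-5p differed by 3.69 times and that of miR-7b-5p by 2.89 times.

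The balance of the 5p and 3p arms was less even. In miR-7a, the 5p arm had 60.0% of the reads of all 3 arms in control library a and 52.2% in CUMS library b, but 29.4% in control library b and 28.6% in CUMS library a. The Wilson intervals of the first pair, 53.4% to 66.2% and 44.5% to 59.9%, lay above those of the second, 22.0% to 38.1% and 22.2% to 36.0%. Each group therefore held a high and a low library, and the share did not follow the groups, with an exact permutation p of 0.667. The difference between the group means was -4.31 points, and -19.6 points without control library b. Its direction changed without control library a, to 11.0 points, and without CUMS library a, to 7.52 points. Without CUMS library b it was -16.1 points. The 4 libraries spanned 31.4 percentage points.

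In miR-7b, the 5p arm had 59 of 59 reads (100%) in control library a, 76.9% in control library b, and 67.6% and 65.9% in CUMS. Both CUMS libraries were below both controls. The Wilson interval of control library a, 93.9% to 100%, lay above those of the other libraries, whereas that of control library b, 57.9% to 89.0%, overlapped both CUMS libraries. The exact permutation p was 0.333. The difference between the group means was -21.8 points, with -33.3 points without control library b and -10.2 points without control library a. miR-671 had the opposite balance, with 1.17% and 1.04% of its reads on the 5p arm in the controls and 0.294% and 1.54% in CUMS, and the groups overlapped. The difference was -0.187 points, and -0.252 points without control library b. It was -0.808 points without CUMS library b, and its direction changed without CUMS library a, to 0.434 points. Of the 3p reads of miR-7a, miR-7a-1-3p had 48.9% and 45.2% in the controls and 62.6% and 52.0% in CUMS. Both CUMS libraries were above both controls by this share, with an exact permutation p of 0.333, and the Wilson interval of CUMS library b, 40.9% to 62.9%, covered both control values. The difference was 10.3 points, with 8.44 points without control library b, 4.95 points without CUMS library a and 15.6 points without CUMS library b.

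**Figure D4:**
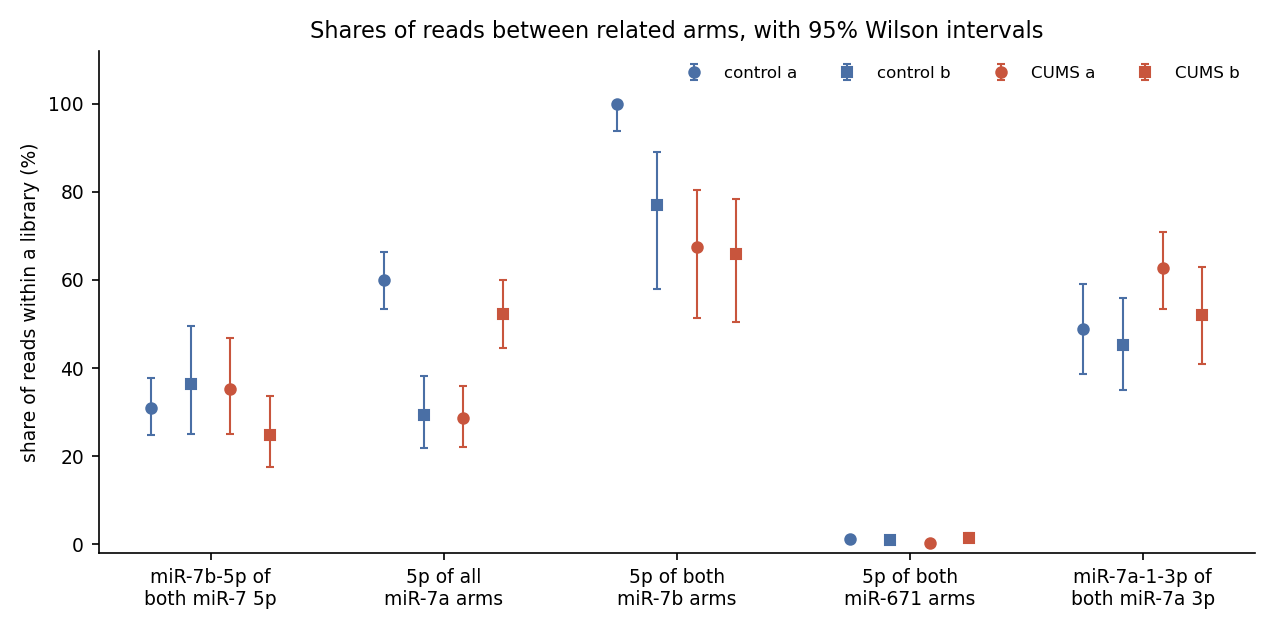
Shares of reads between related arms within each library, in percent, with 95% Wilson intervals, for control (blue) and CUMS (red) libraries a (circles) and b (squares). The 5p share of miR-7a is high in control library a (60.0%) and CUMS library b (52.2%) and low in the other pair, and the share of miR-671-5p stays near the bottom of the axis.

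Other miRNAs with the most similar pattern were sought among those with a mean of at least 100 over the 4 libraries, by the Euclidean distance of log2(normalized count + 1) centred on its mean. For miR-7a-5p these were miR-34a-5p, miR-24-3p and miR-124-5p, out of 304 candidates, at distances of 0.54, 0.88 and 0.92. miR-34a-5p had normalized counts of 158 and 73.0 in the controls and 72.5 and 128 in CUMS, high and low in the same libraries as miR-7a-5p. It was also the nearest to miR-7b-5p, at 0.52, before let-7a-5p at 0.69 and miR-376b-3p at 0.70. The distance of miR-7a-5p to miR-7b-5p was 0.62, whereas its distances to the 3p arms of its own hairpins were 1.78 for miR-7a-1-3p and 1.55 for miR-7a-2-3p.

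For miR-671-3p the nearest of 303 candidates were miR-134-5p at 0.08, miR-322-5p at 0.18 and miR-301b-3p at 0.19. miR-134-5p, a neuronal miRNA, had normalized counts of 202 and 189 in the controls and 137 and 147 in CUMS. For miR-671-5p they were miR-10b-5p at 0.74, miR-19b-3p at 0.87 and miR-146a-5p at 0.90. miR-10b-5p had normalized counts of 8360 and 5927 in the controls and 3093 and 8948 in CUMS, and so it was low in CUMS library a like miR-671-5p but with far more reads. The distance between both arms of miR-671 was 1.56. With 4 libraries, many miRNAs lie near any pattern, and no test was made of these distances.

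**Figure D5:**
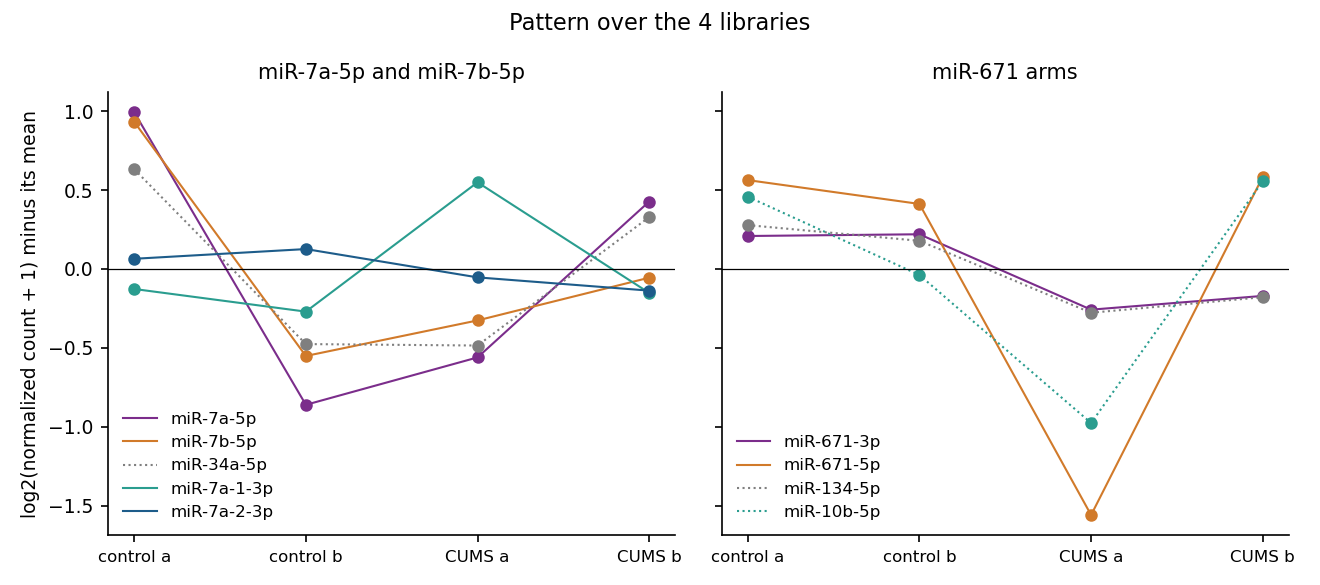
Log2(normalized count + 1) of each miRNA minus its mean over the 4 libraries. Solid lines are arms of miR-7 (left) and miR-671 (right), dotted lines are near miRNAs from the rest, and lines only join the points of 1 miRNA. miR-7a-5p, miR-7b-5p and miR-34a-5p are highest in control library a, whereas miR-7a-2-3p is nearly flat.

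The tissue was checked with listed markers. All 8 neuronal miRNAs were present in every library, with a summed normalized count of 868455 and 741162 in the controls and 832036 and 977610 in CUMS, mostly miR-9-5p, and 0 of them were past the fold of 1.5. miR-124-3p had both CUMS libraries (29393 and 35217) above both controls (25922 and 23143), a log2 fold of 0.40. In each of the other neuronal miRNAs the groups overlapped. miR-375-3p, a neuroendocrine miRNA, had 4275 and 6431 in the controls and 3513 and 3798 in CUMS, a log2 fold of -0.55. Both CUMS libraries lay below both controls, as for miR-671-3p. The 3 oligodendrocyte miRNAs, led by miR-338-3p, summed to 7887 and 8365 in the controls and 6162 and 7338 in CUMS, and both CUMS libraries lay below both controls here too. Of the 3 miRNAs of microglia and blood leukocytes, led by miR-142a-5p, 1 was past the fold lower, miR-223-3p, whose groups overlapped, with 24.5 and 5.00 in the controls against 3.77 and 14.8 in CUMS. Control library a alone lay above both CUMS libraries. The sums of the list were 1430 and 1234 against 1396 and 1632. They follow miR-142a-5p, whereas miR-142a-3p had both CUMS libraries (40.5 and 45.6) below both controls (49.9 and 64.0), and the median log2 fold of the list was -0.40. The 2 endothelial miRNAs, led by miR-126a-5p, summed to 13692 and 12754 against 13020 and 14763. miR-126a-3p had both CUMS libraries (1735 and 1589) below both controls (1810 and 1868). Of the 2 red cell miRNAs, led by miR-451a, 1 was past the fold higher, miR-144-3p, with sums of 420 and 378 against 389 and 585. In miR-144-3p the groups overlapped, with 94.9 and 63.0 in the controls against 77.2 and 165 in CUMS, and CUMS library b alone lay above both controls. The 2 choroid plexus miRNAs, led by miR-204-5p, summed to 16941 and 22015 against 15959 and 12627, and both CUMS libraries lay below both controls. This follows miR-204-5p, whereas in miR-211-5p the groups overlapped, with 124 and 20.0 against 86.6 and 18.0. No marker outside the miR-183 and miR-200 clusters was at 0 in a library. The part of the cells that these markers stand for in the difference of miR-671-3p was not tested.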

How the data were processed

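Small RNA of medial prefrontal cortex was sequenced in 2 control and 2 CUMS libraries. The authors removed adaptors, poor reads and other noncoding RNA, matched the rest to the precursors of miRBase without mismatch and counted reads per mature miRNA. The submitters' processing notes name Bowtie, DESeq and mm10. The deposited signal is the mean normalized read count of each group, that is reads divided by DESeq size factors. Folds, log2 folds and p-values of the authors' own comparison stand beside it and were not used.

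Whole reads of each library were solved from each mean, as a sum of 2 whole numbers times 2 steps. This gave whole reads for 100% of the 1038 miRNAs in either group, within a relative tolerance of 1e-09, and 2 control values, of which 0 belonged to the arms, had a second solution nearly as good. The size factors of control a, control b, CUMS a and CUMS b were 1.02, 1.00, 1.06 and 0.944, and equalled the median-of-ratios factors of the solved reads. The recovery was tested on simulated data. The libraries could not be tied to replicate numbers. With 3 reads as the floor, a miRNA at 0 may hold up to 2.85e-05%, 2.78e-05%, 2.88e-05% and 3.13e-05% of the reads in control a, control b, CUMS a and CUMS b.

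The main comparison was the fold of the group means. The solved reads were tested with edgeR 4.0.16 (quasi-likelihood, TMM, 5 reads or more in 1 library) and by the Wald test of DESeq2 1.42.0, under R 4.3.3. The Benjamini-Hochberg adjustment was over all miRNAs tested in edgeR, and in DESeq2 over those kept by its own filter on the mean count. Both tools were tested on simulated counts. Intervals, exact permutation tests and plots were made with Python 3.11.15, numpy 2.4.6, pandas 2.3.3, scipy 1.17.1 and matplotlib 3.10.9. Intervals cover counting error only, since PCR copies are not independent molecules. The edgeR and DESeq2 p-values set a group difference against the spread between libraries. The permutation p compares a group difference with those from the other ways to divide the 4 libraries. Loci and transcripts came from GENCODE M21 on GRCm38, the build mm10. Named miRNAs were the 7 arms, any miRNA with their seeds, the marker lists and the 3 nearest patterns of miR-7a-5p, miR-7b-5p, miR-671-5p and miR-671-3p. The members and lists were chosen with earlier results of these data known. Alternatives covered the scaling, the thresholds, the filter, the tool and leaving out each library. The sequencing of mRNA was not analysed here.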

Additional observations from a re-analysis of the deposited data

How the results depend on the processing

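Without a single library, the log2 fold ranged from -0.99 to 0.90 for miR-7a-5p, -1.15 to 0.38 for miR-7b-5p, 0.046 to 0.76 for miR-7a-1-3p, -2.39 to 0.10 for miR-671-5p and -0.47 to -0.39 for miR-671-3p. The value of 0.10 for miR-671-5p came without CUMS library a, whose 3 reads set the direction. miR-7b-3p lay between 1.12 and 2.31 in its alternatives other than that without control library b, where 2.15, at 3 reads for a count of 0, is a lower limit, and miR-7a-2-3p and miR-671-3p kept their sign in each of theirs. When reads were scaled to the total of each library, the log2 fold was -0.12 for miR-7a-2-3p and -0.35 for miR-671-3p. This scaling moved the median log2 ratio of the 347 miRNAs whose means reached 50 in both groups from 0.02 to 0.10, or to 0.03 with the cluster reads left out of the totals. The number of arms past the fold was 0 at a minimum mean of 50, which only miR-7a-5p, miR-7a-1-3p and miR-671-3p reached in either group. The number was 6 of 7 at a fold threshold lower by 0.25, 1 of 7 at a fold of 2, and 1 to 5 of 7 without a single library. For all miRNAs it was 503 without a minimum mean and 29 at a minimum mean of 50. The numbers of miRNAs compared are not given for these minimum means, so the arms cannot be set against a share there. At a fold threshold lower by 0.25 the number for all miRNAs was 265 of 628. At a fold of 2 it was 84 of 628, as wider or narrower criteria must give. The number called by edgeR was 0 without a filter, with RLE size factors and in DESeq2, and 0 to 12 without a single library, a check that was added after seeing the data. Control library b was singled out in the text after its cluster reads were seen. Of the shares, the difference between groups changed sign without a single library for miR-7b-5p among the miR-7 seed reads (-8.86 to 1.58 points), the 5p share of miR-7a (-19.6 to 11.0 points) and that of miR-671 (-0.808 to 0.434 points). The 5p to 3p balance of miR-7b was given as a share because a log2 ratio has no value at 0 reads. No paired analysis was possible because the solved libraries carry no replicate number. The size of difference that 2 libraries a group could detect was not measured.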
